A study of Mus musculus with 8 samples.

Results

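Collagens are secreted trimers of α chains, each chain coded by its own gene, and their family is split by the shape of the assembly. The genes described here are the 44 mouse protein-coding genes whose symbol follows the pattern of Col, a type number, a and a chain number, out of 55359 genes in the deposited table. Of these, 27 passed the low-count filter and were tested, 9 had a few counts but fell below it, and 8 had 0 counts in each of the 8 libraries. MLO-Y4 is a mouse cell line labelled as wild-type and as osteocyte, the cell type buried in bone matrix. The study set 4 libraries of non-irradiated cells (C5 to C8) against 4 libraries of cells exposed for 1 min to a pulsed Er:YAG laser (L5 to L8), a dental infrared laser at 2940 nm, with a fluence of 6 J/cm2 and the emitter 25 cm from the bottom of the 35-mm dish. Both groups grew in serum-containing medium on dishes coated with rat tail collagen type I and gave RNA 6 h after the exposure of the irradiated group. The medium was taken off for the irradiation, and the labels do not say whether the control dishes were handled alike. All libraries come from a single cell line. Separate cultures are not stated for the replicates, so p-values measure only how far these samples spread, and that spread may be technical.

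Bone matrix is built mainly from type I collagen, a fibril-forming trimer made for the most part of α1(I) and α2(I) chains. Fibrillar chains (types I, II, III, V, XI, XXIV and XXVII) pack side by side into fibrils, in which the minor types V and XI help to set where a fibril starts and how thick it grows. Network-forming types IV, VIII and X build sheets, FACIT types (fibril-associated collagens with interrupted helices) sit on fibril surfaces, and the other classes include the beaded filaments of type VI, the anchoring fibrils of type VII, membrane-spanning types and the basement-membrane types XV and XVIII. Chains are hydroxylated and folded in the endoplasmic reticulum, exported, trimmed of their propeptides and cross-linked outside the cell.

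Library totals ran from 43786209 to 51734166 counts. Levels are given as CPM (read counts scaled to a common library size, with library sizes corrected for composition by TMM), or as CPM per kilobase of the longest coding transcript where genes are compared with each other. Log2 fold changes are irradiated minus non-irradiated, so a positive value means higher after the laser. A gene was called when its edgeR quasi-likelihood p, adjusted by Benjamini-Hochberg over all 15164 tested genes, was under 0.05. In bulk RNA, a change in how many cells express a gene and a change in RNA per cell cannot be told apart. Of 11 osteoblast and osteocyte markers 7 were tested, of which Pdpn, Alpl and Runx2 were higher, each with a mean above 10 CPM. Over all tested genes 15.0% were called (8.22% higher), and 21.7% of those with a mean of at least 10 CPM. Whether these markers were called more often than other genes was not tested. Spp1 and Pdpn were abundant (9357 ± 256 and 487 ± 12.6 CPM in non-irradiated cells, SD, n = 4), but the osteoblast gene Ibsp and the osteocyte genes Mepe and Sost had 0 counts in every library. Markers of endothelial, adipocyte and epithelial cells stayed under 1 CPM when summed over each list, in every library. Of 6 macrophage and osteoclast markers Csf1r was higher (14.2 ± 1.17 to 26.2 ± 1.2 CPM), and Ptprc, Adgre1 and Acp5 had 0 counts. Cd68 was lower without overlap but was not called (4.45 ± 0.459 to 3.52 ± 0.394 CPM, edgeR adjusted p = 0.193). Mpo was at 0.252 and 0.172 CPM. The summed level was 17.6 to 21 CPM in controls and 28.4 to 31.3 CPM after irradiation, a rise that came from Csf1r. Of 6 fibroblast and tendon markers Pdgfra was higher (229.8 ± 7.44 to 261.6 ± 9.59 CPM), and Tnmd and Mkx had 0 counts. Dpt and Scx were not called (edgeR adjusted p = 0.785 and 0.658), and Thy1 was at 0.147 and 0.0933 CPM. The sum was 230.2 to 247.5 CPM in controls and 259.5 to 283.6 CPM after irradiation, nearly all of it Pdgfra. The part of these markers in the collagen results was not tested.

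After irradiation 7 collagen genes were called, in both directions, and the 5 of highest level per kilobase (Col6a1, Col6a2, Col3a1, Col6a3 and Col1a1) were not among them. Col8a1, Col11a1 and Col1a2 rose, and Col5a3, Col11a2, Col18a1 and Col4a2 fell. That is 3 higher and 4 lower of 27 tested members, or 25.9% called, where 15.0% of all tested genes were called (8.22% higher and 6.75% lower). Called genes are more frequent at high expression, and 6 of the 15 members with a mean of at least 10 CPM were called (40.0%), beside 21.7% of all tested genes at that level. The members' median log2 fold change was 0.016, next to -0.0065 over all tested genes. The groups did not overlap for 6 members, the called ones other than Col4a2, and they did not overlap for 18.5% of all tested genes. These 6 were called under each of the 17 alternative settings, Col4a2 in 7 of them. By class, 2 rose and 2 fell of 10 tested fibrillar genes, 1 rose and 1 fell of 5 network genes, none of 4 FACIT genes was called and 1 of 8 other genes fell.

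**Figure D1:**
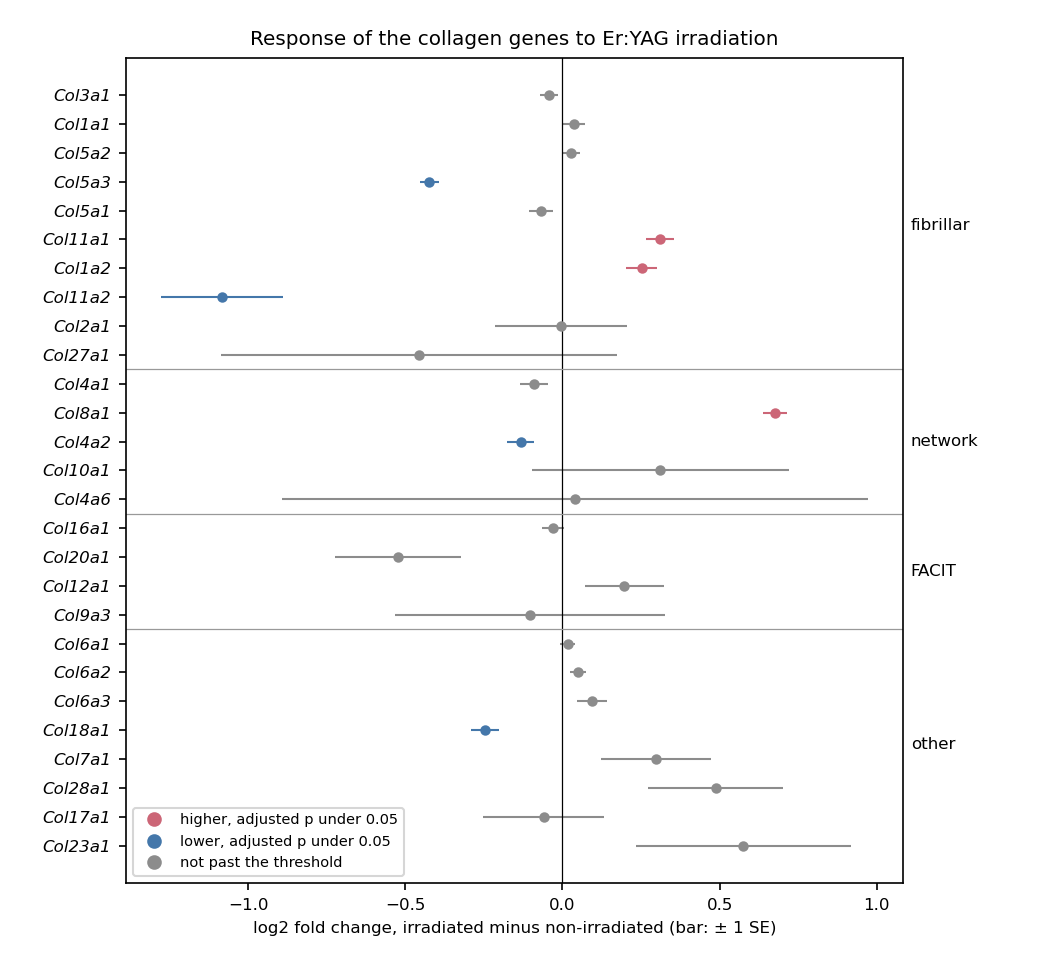
Log2 fold change (irradiated minus non-irradiated, horizontal axis) of the 27 tested collagen genes, grouped by class and ordered by level within a class, with bars of 1 SE and colour for the edgeR call. The 7 called genes stand away from 0, while abundant genes such as Col1a1 (0.036) and Col6a1 (0.016) lie on it, and wide bars belong to genes of low count such as Col4a6 and Col27a1.

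At rest, type VI collagen was the most abundant by transcript. Col6a1, Col6a2 and Col6a3 code for the α1(VI), α2(VI) and α3(VI) chains that assemble into the microfibrils around cells. Per kilobase they stood at 610.2 ± 8.31, 370.2 ± 6.99 and 199 ± 14.6 CPM in non-irradiated cells (SD, n = 4). Type VI genes made up 54.4 ± 0.275% of the summed collagen level per kilobase in non-irradiated and 55.5 ± 0.297% in irradiated libraries. Fibrillar genes made up 33.6 ± 0.371% and 32.1 ± 0.217%, network genes 7.23 ± 0.344% and 7.8 ± 0.215%, and FACIT genes 4.06 ± 0.128% and 3.94 ± 0.105%. All collagen genes together took 1.24 ± 0.0158% of the counts of a non-irradiated library and 1.23 ± 0.0264% of an irradiated one.

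In non-irradiated cells the fibrillar chains followed, with Col3a1 at 223 ± 5.79 and Col1a1 at 188 ± 10.1 CPM per kilobase. Col5a3 (112 ± 2.7) and Col5a2 (107 ± 1.33) came next, then the FACIT gene Col16a1 (86 ± 3.46), the basement-membrane gene Col4a1 (82.6 ± 4.2) and Col5a1 (76.6 ± 3.98). Col6a3 and Col1a1 lay within their spread of each other, as did Col16a1 and Col4a1. Col4a2 (37.5 ± 2.45) and Col8a1 (36.6 ± 1.83) were alike before irradiation. Col18a1 (15.2 ± 0.463), Col11a1 (13.3 ± 0.859) and Col1a2 (8.39 ± 0.154) were lower still, and the other 12 tested members, each under 10 CPM, were below 1 CPM per kilobase. The order rests partly on the length used. With the union of all annotated exons as length and all libraries pooled, Col1a1 (172) stood above Col3a1 (124), and Col6a2 (211) came closer to Col6a3 (174).

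The order of some neighbours differed after irradiation. Col8a1 rose to 58.4 ± 2.27 CPM per kilobase, above Col4a2 at 34.2 ± 1.44. Col5a3 fell to 83.2 ± 3.31, beside Col16a1 at 84.3 ± 3.47 and below Col5a2 at 109 ± 3.71. Col11a1, at 16.5 ± 0.468, stood above Col18a1, at 12.8 ± 0.531, the reverse of their order in controls. These orders rest on the length used as well. With union exon lengths and all libraries pooled, Col18a1 (11.2) stood above Col11a1 (8.97). By the same measure Col5a3 (87.6) stood above Col5a2 (74.9) and Col16a1 (65.7). Union lengths are not given by group here, so the reversals hold for the longest coding transcript only.

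**Figure D2:**
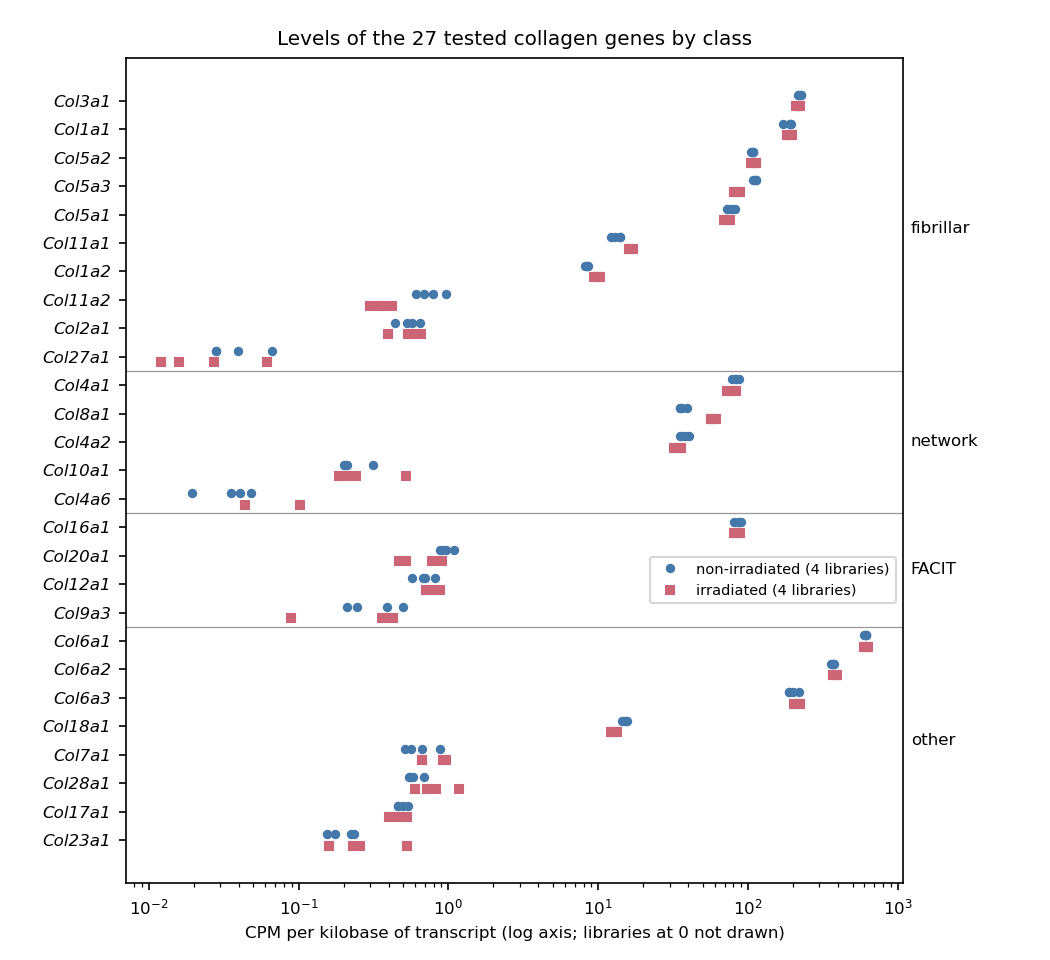
Level of each tested collagen gene in CPM per kilobase of its longest coding transcript (horizontal log axis), with 1 point per library, blue circles for the 4 non-irradiated and red squares for the 4 irradiated libraries. Col6a1 is highest near 610 CPM per kilobase, and the groups separate for Col8a1, Col5a3, Col11a1, Col11a2, Col1a2 and Col18a1.

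Type I collagen showed a large gap between its chains. Col1a1 (ENSMUSG00000001506.11), the gene of the α1(I) chain, gave 1131, 1023, 1141 and 1153 CPM in C5 to C8 and 1081, 1157, 1173 and 1149.8 CPM in L5 to L8. The groups overlapped and the log2 fold change was 0.036 (SE 0.036, edgeR adjusted p = 0.581). Col1a2 (ENSMUSG00000029661.17), the gene of the α2(I) chain, gave 45.2, 45.7, 43.7 and 44.9 CPM in C5 to C8 and 54.2, 53.9, 55.4 and 50.2 CPM in L5 to L8. Every irradiated library was above every non-irradiated one, a rise of 1.19-fold (log2 fold change 0.25, SE 0.05, edgeR adjusted p = 0.00151). Type I trimers usually hold α1(I) and α2(I) chains at 2 to 1. Per kilobase, Col1a1 exceeded Col1a2 by 22.6, 20.2, 23.5 and 23.2 times in C5 to C8 and by 18, 19.4, 19.1 and 20.7 times in L5 to L8. The ratio was lower in 3 irradiated libraries than in any control, and L8 lay above C6. With union exon lengths the ratio was larger still, 47 ± 3.15 in non-irradiated and 40.5 ± 2.3 in irradiated cells (SD, n = 4).

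Col3a1, which codes for type III collagen, the partner of type I in pliable tissues, gave 1266, 1212, 1268 and 1211 CPM in C5 to C8 and 1159, 1210.4, 1238 and 1206 CPM in L5 to L8. The groups overlapped (log2 fold change -0.042, SE 0.028, edgeR adjusted p = 0.356).

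Within type V, 1 chain of the 3 moved. Col5a1 and Col5a2 code for the chains of the common type V trimer, and Col5a3 for a chain of a rarer form. Col5a3 (ENSMUSG00000004098.8) gave 693, 694, 686 and 659 CPM in C5 to C8 and 493, 498, 538 and 508 CPM in L5 to L8. No irradiated library came within 100 CPM of the lowest control, and the fall was 1.34-fold (log2 fold change -0.42, SE 0.031, edgeR adjusted p = 1.19e-08). Col5a1 gave 658, 684, 622 and 612 CPM in C5 to C8 and 610.1, 579, 634 and 633 CPM in L5 to L8 (log2 fold change -0.069, SE 0.037, edgeR adjusted p = 0.248). Col5a2 gave 713, 721, 713 and 699.5 CPM in C5 to C8 and 709, 699, 747 and 745 CPM in L5 to L8 (log2 fold change 0.027, SE 0.029, edgeR adjusted p = 0.612). Both of these overlapped between the groups. At 683 ± 16.5 CPM in controls, Col5a3 was the most abundant of the called members.

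The type XI chains went in opposite directions. Col11a1 (ENSMUSG00000027966.21) and Col11a2 (ENSMUSG00000024330.18) code for the α1(XI) and α2(XI) chains, best known from cartilage fibrils, where they join a product of Col2a1. Col11a1 gave 108, 107, 99.2 and 94.1 CPM in C5 to C8 and 131, 122, 125 and 127 CPM in L5 to L8, a rise of 1.24-fold (log2 fold change 0.31, SE 0.045, edgeR adjusted p = 5.48e-05). Col11a2 gave 3.7, 5.82, 4.8 and 4.18 CPM in C5 to C8 and 2.53, 2.29, 2.08 and 1.83 CPM in L5 to L8, a fall of 2.12-fold (log2 fold change -1.08, SE 0.193, edgeR adjusted p = 0.000538). Neither gene's groups overlapped, and Col11a2 changed by the largest factor of the called members. It rests on 90 to 272 counts per library, and on fewer fragments if each adds about 4 counts. Col2a1, the main cartilage collagen gene, stood at 2.8 ± 0.444 CPM in controls and 2.78 ± 0.573 CPM after irradiation (edgeR adjusted p = 0.992). Of 7 chondrocyte markers 3 were tested and 1 was higher, Sox9, a cartilage transcription factor (138 ± 1.72 to 214 ± 7.13 CPM, log2 fold change 0.63, edgeR adjusted p = 2.3e-10). The summed level of the list was 138.1 to 142.3 CPM in controls and 208.2 to 225.9 CPM after irradiation, nearly all of it Sox9, and the cartilage genes Acan, Cnmd and Snorc had 0 counts throughout. The part of Sox9 in the type XI changes was not tested.

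The remaining fibrillar genes were scarce. Col27a1 had between 4 and 24 counts per library and was not called (edgeR adjusted p = 0.715). Col24a1 fell below the filter with 17 counts over the non-irradiated and 8 over the irradiated libraries.

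Among network-forming collagens Col8a1 gave the clearest response of the family. Col8a1 (ENSMUSG00000068196.6) codes for a short-chain collagen of vessel walls and of the sheet under the corneal endothelium. It gave 187, 200.0, 179 and 181 CPM in C5 to C8 and 301, 288, 314 and 291 CPM in L5 to L8. The lowest irradiated library was far above the highest control, and the rise was 1.6-fold (log2 fold change 0.68, SE 0.039, edgeR adjusted p = 4.5e-10). Its usual partner Col8a2 was below the filter, with 17 counts over the non-irradiated and 8 over the irradiated libraries.

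The type IV genes Col4a1 and Col4a2 lie head to head and their products form the common basement-membrane trimer. Col4a1 gave 550.4, 581, 539 and 514 CPM in C5 to C8 and 497, 479, 526 and 551 CPM in L5 to L8, with overlap between the groups (log2 fold change -0.091, SE 0.044, edgeR adjusted p = 0.195). Col4a2 (ENSMUSG00000031503.14) gave 233, 262, 245 and 226 CPM in C5 to C8 and 218, 208, 229 and 226 CPM in L5 to L8, a fall of 1.1-fold with overlap between the groups (log2 fold change -0.13, SE 0.043, edgeR adjusted p = 0.0439). This call is fragile: it held without C8, and was lost on leaving out C5, C6, C7, L5, L6, L7 or L8 (edgeR adjusted p = 0.0611, 0.108, 0.117, 0.11, 0.15, 0.0547 and 0.0617), with limma-voom (0.0521) and without both libraries numbered 6 (0.297). Annotated exons of the pair overlap by 22 bases on opposite strands, and whether counting used strand is not given in the sources used here. Col4a3 had 8 counts over the non-irradiated and 6 over the irradiated libraries, Col4a4 had 19 and 0, and Col4a5 had 0 throughout. Col4a6 was at 0.239 ± 0.0809 and 0.243 ± 0.322 CPM, with 0 counts in L7 and L8. Col10a1, the marker of hypertrophic cartilage, was at 0.729 ± 0.174 and 0.904 ± 0.487 CPM (edgeR adjusted p = 0.696).

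**Figure D3:**
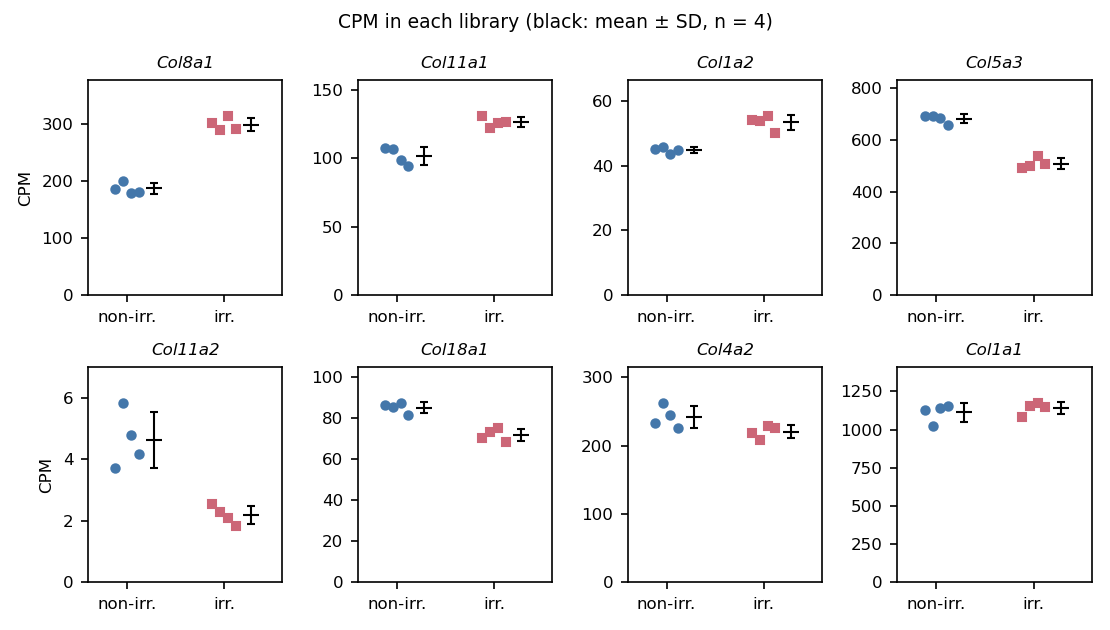
CPM in each library for the 7 called collagen genes and, last, Col1a1, with blue circles for non-irradiated and red squares for irradiated libraries and black marks for mean ± SD (n = 4). The groups are apart for Col8a1, Col11a1, Col1a2, Col5a3, Col11a2 and Col18a1, and overlap for Col4a2 and Col1a1.

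The promoters of Col8a1, Col11a1, Col5a3 and Col11a2 are shown because these are the called genes of highest fold change in each direction and their sequences were at hand. Each run is the 250 bases before the annotated start, 5′ to 3′ on the gene's strand, from RefSeq on GRCm38.p6. Col8a1 is at chr16:57754738-57754987 on the minus strand, Col11a1 at chr3:114030290-114030539 on the plus strand, Col5a3 at chr9:20815068-20815317 on the minus strand and Col11a2 at chr17:34038888-34039137 on the plus strand. Capitals mark matches, on either strand, to the TATA box TATAAA, the CCAAT box CCAAT, the GC box GGGCGG, the AP-1 site TGANTCA, the TEAD site GGAATG and the SMAD-type site CAGACA, none of which contains another.
Col8a1: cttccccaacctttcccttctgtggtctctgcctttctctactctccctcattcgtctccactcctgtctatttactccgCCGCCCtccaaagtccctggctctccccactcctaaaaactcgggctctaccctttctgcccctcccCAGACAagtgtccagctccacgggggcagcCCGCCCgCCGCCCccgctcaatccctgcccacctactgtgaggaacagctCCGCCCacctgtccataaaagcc
Col11a1: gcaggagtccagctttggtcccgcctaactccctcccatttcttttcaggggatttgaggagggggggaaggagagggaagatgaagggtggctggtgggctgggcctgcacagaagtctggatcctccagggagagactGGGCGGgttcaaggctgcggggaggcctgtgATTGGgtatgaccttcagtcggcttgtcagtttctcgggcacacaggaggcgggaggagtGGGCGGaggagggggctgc
Col5a3: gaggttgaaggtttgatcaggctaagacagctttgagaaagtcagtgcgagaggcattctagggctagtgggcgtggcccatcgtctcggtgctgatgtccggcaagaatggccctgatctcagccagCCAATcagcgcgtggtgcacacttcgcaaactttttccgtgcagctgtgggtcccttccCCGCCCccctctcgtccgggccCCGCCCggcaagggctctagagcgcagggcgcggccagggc
Col11a2: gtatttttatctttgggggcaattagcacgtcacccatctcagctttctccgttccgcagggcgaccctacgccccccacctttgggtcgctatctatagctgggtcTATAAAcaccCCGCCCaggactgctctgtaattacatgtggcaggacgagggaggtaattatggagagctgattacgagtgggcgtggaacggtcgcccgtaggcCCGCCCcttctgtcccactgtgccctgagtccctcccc

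All 4 promoters held the GC box, Col8a1 at 4 places and the others at 2 each. The CCAAT box was in Col11a1, with its first base 79 bases before the start, and in Col5a3, 122 bases before it. TATAAA was in Col11a2, 143 bases before the start, and CAGACA in Col8a1, 103 bases before it. TGANTCA and GGAATG were not in these 4 windows. Of 32851 mouse promoters of this length 32.7% held the GC box, 33.8% CCAAT, 12.4% TATAAA, 17.1% CAGACA, 6.75% TGANTCA and 12.6% GGAATG. Among 38 promoters of the 35 collagen genes that matched by symbol, the shares were 57.9%, 34.2%, 13.2%, 23.7%, 2.63% and 10.5%. Rising and falling genes shared the GC box, and CCAAT occurred in 1 of each. A match is a description of letters and not evidence of a bound factor.

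FACIT genes gave no call. Col16a1, whose product associates with fibrils and cell adhesions, was the one abundant member. It gave 449.6, 465, 454 and 423 CPM in C5 to C8 and 430.1, 418, 449.6 and 458 CPM in L5 to L8 (log2 fold change -0.029, SE 0.035, edgeR adjusted p = 0.661). Col12a1, found on fibrils of tendon and bone surfaces, gave 6.55, 9.35, 8.08 and 7.76 CPM in C5 to C8 and 9.58, 8.49, 10.1 and 8.17 CPM in L5 to L8 (edgeR adjusted p = 0.344). Col20a1 gave 4.56, 4.43, 5.44 and 4.83 CPM in C5 to C8 and 2.34, 2.6, 3.9 and 4.58 CPM in L5 to L8, with L8 within the control range (log2 fold change -0.52, SE 0.202, edgeR adjusted p = 0.0914). Without L8 it was called (log2 fold change -0.71, edgeR adjusted p = 0.0317). An overlapping sense transcript covers 79 bases of its exons and was itself at 4.02 CPM. Col9a3 was near 1 CPM (1.02 ± 0.401 and 0.953 ± 0.461). Col14a1 was below the filter with 19 and 35 counts over the groups, Col9a2 had 2 and 0, and Col9a1, Col19a1 and Col22a1 had 0 throughout.

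Among the other classes Col18a1 (ENSMUSG00000001435.16) fell. It codes for a basement-membrane collagen whose C-terminal fragment is endostatin, an inhibitor of vessel growth. It gave 86.5, 85.1, 87.2 and 81.4 CPM in C5 to C8 and 70.4, 73.1, 74.9 and 68.2 CPM in L5 to L8. The groups did not overlap and the fall was 1.19-fold (log2 fold change -0.25, SE 0.045, edgeR adjusted p = 0.000611). Its relative Col15a1 was below the filter, with 7 counts over the non-irradiated and 15 over the irradiated libraries.

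The 3 abundant type VI genes did not pass the test. Col6a1 gave 2532, 2454, 2519 and 2502 CPM in C5 to C8 and 2431, 2542, 2563 and 2585 CPM in L5 to L8 (log2 fold change 0.016, SE 0.025, edgeR adjusted p = 0.746). Col6a2 gave 1721, 1680.0, 1758 and 1731 CPM in C5 to C8 and 1724, 1782, 1799 and 1831 CPM in L5 to L8 (log2 fold change 0.05, SE 0.026, edgeR adjusted p = 0.216). L5 was the lowest irradiated library for both genes, below every control for Col6a1 and inside the control range for Col6a2, so the groups overlapped. Col6a3 gave 2036, 2214, 1895 and 1910.5 CPM in C5 to C8 and 2188, 2049, 2245 and 2112 CPM in L5 to L8 (log2 fold change 0.093, SE 0.048, edgeR adjusted p = 0.247). C6 was the highest control, and without it Col6a3 was called higher (log2 fold change 0.14, edgeR adjusted p = 0.00365). The paralogs Col6a4, Col6a5 and Col6a6, whose chains can take the place of α3(VI), were not expressed above a few counts. Col6a4 had 0 counts throughout, Col6a5 had 11 over the non-irradiated and 26 over the irradiated libraries, and Col6a6 had 0 and 11, all of these in L5.

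The anchoring fibril gene, the membrane-spanning types and the further genes Col26a1 and Col28a1 were at low levels or without counts. Col7a1, the anchoring fibril gene, was at 6.05 ± 1.49 and 7.43 ± 1.52 CPM, a log2 fold change of 0.30 (SE 0.175, edgeR adjusted p = 0.296). Col28a1 was at 2.51 ± 0.261 and 3.52 ± 1.07 CPM (edgeR adjusted p = 0.145). Col17a1, of hemidesmosomes, was at 2.74 ± 0.202 and 2.63 ± 0.336 CPM (edgeR adjusted p = 0.889). Col23a1 was at 1.12 ± 0.216 and 1.66 ± 0.916 CPM (edgeR adjusted p = 0.297), with L8 alone at 2.99 CPM. Col13a1, Col25a1 and Col26a1 had 0 counts throughout.

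The 8 genes without a count were Col4a5, Col6a4, Col9a1, Col13a1, Col19a1, Col22a1, Col25a1 and Col26a1. A count of 0 allows up to 0.0685 CPM in the smallest library (3 counts), or 0.274 CPM if a fragment adds about 4 counts, and both limits cover counting error only. With a filter of 1 count in total the 9 sparse genes could be tested as well. None was called by edgeR, and 2 of them, Col4a4 and Col6a6, were under 0.05 before adjustment. Precision followed depth. The median SE of the log2 fold change was 0.037 for the 15 tested members of at least 10 CPM and 0.213 for the 12 below, so small changes were not detectable among the latter. The 9 members of at least 100 CPM in controls that were not called had log2 fold changes between -0.09 and 0.09.

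Chains that join in a trimer, and the main chains of types I and III, were also compared by their ratio. Ratios of CPM per kilobase within a library were compared for 7 pairs, with a two-sided exact permutation test over the 8 libraries on the log2 ratio of CPM with a pseudocount of 0.5. With 4 against 4 libraries the smallest possible p is 0.0286. Col11a1 exceeded Col11a2 by 23, 14.5, 16.3 and 17.8 times in C5 to C8 and by 40.9, 42.2, 47.7 and 54.8 times in L5 to L8. The log2 ratio was 1.24 higher after irradiation, higher in 4 of 4 irradiated libraries than in any control (exact permutation p = 0.0286, adjusted p = 0.0667 over the 7 pairs). Col5a1 to Col5a2 (0.713 ± 0.03 to 0.667 ± 0.0104) and Col6a1 to Col6a2 (1.65 ± 0.0192 to 1.61 ± 0.00923) shifted by small amounts without overlap, with the same exact permutation p and the same adjusted p. Col1a1 to Col1a2 went from 22.4 ± 1.5 to 19.3 ± 1.1 with overlap (exact permutation p = 0.0571, adjusted p = 0.1). Col4a1 to Col4a2 gave 2.21 ± 0.0703 and 2.27 ± 0.0745 (exact permutation p = 0.257), Col6a3 to Col6a1 gave 0.327 ± 0.0277 and 0.345 ± 0.0184 (exact permutation p = 0.314), and Col1a1 to Col3a1 gave 0.842 ± 0.0415 and 0.889 ± 0.00981 (exact permutation p = 0.0857). By this exact test 0 of 7 pairs passed after adjustment and 3 had an unadjusted p under 0.05. Those 3 were already at the smallest possible p, so a pass required more of the 7 pairs to separate fully. The count of 0 therefore does not show that the ratios stayed the same. Col8a1 and Col8a2 could not be compared because Col8a2 was below the filter.

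**Figure D4:**
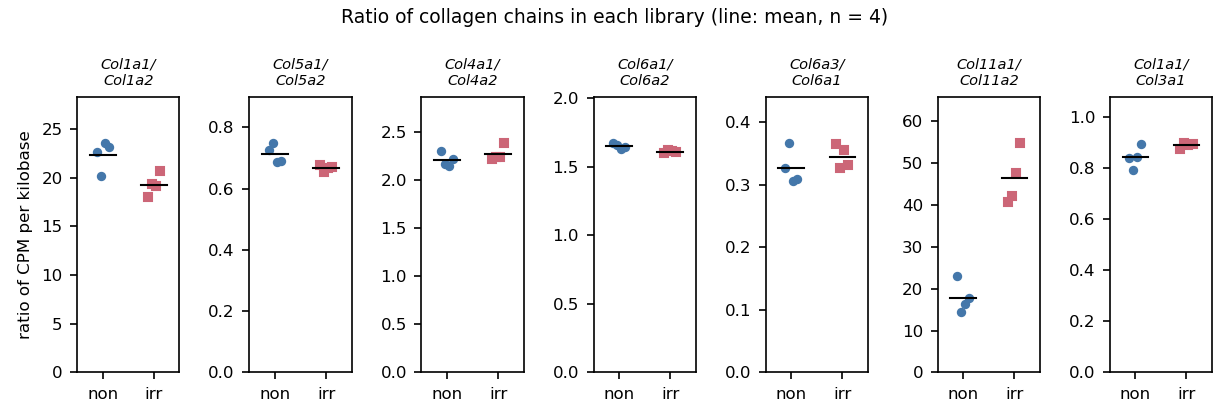
Ratio of CPM per kilobase of the named chains (vertical axes, each from 0) in every library, with blue circles for non-irradiated and red squares for irradiated libraries and a line at the mean (n = 4). Col11a1 to Col11a2 lies between 14.5 and 23 in non-irradiated and between 40.9 and 54.8 in irradiated libraries, and the other ratios moved far less.

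Genes that make, finish, bind and cleave collagen were taken as 63 genes in 7 lists, of which 51 were tested. Of these 13 rose, 4 fell and the other 34 missed the threshold. The median log2 fold change of the 51 was 0.061, beside -0.0065 over all tested genes. Of all tested genes 15.0% were called, and 21.7% of those with a mean of at least 10 CPM, which most of the 51 reached. Whether these lists were called more often than other genes of like level was not tested. Among enzymes of hydroxylation, glycosylation and folding 3 of 15 rose and 1 fell. P3h1, a prolyl 3-hydroxylase, rose 1.22-fold (61.1 ± 1.63 to 74.7 ± 3.46 CPM, edgeR adjusted p = 0.000199). The lysyl hydroxylase genes Plod3 and Plod2, whose products prepare lysines for sugars and cross-links, rose 1.13-fold and 1.12-fold (edgeR adjusted p = 0.000913 and 0.00397). P3h3 fell 1.07-fold (edgeR adjusted p = 0.0371), a call that was lost without C5 (0.145), C7 (0.0736), L5 (0.0541), L6 (0.109) or L7 (0.129) and with a filter of 1 count (0.0588). Serpinh1, the gene of the collagen chaperone HSP47, named after its values were seen, had a log2 fold change of 0.018 (edgeR adjusted p = 0.741).

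Of 8 genes of procollagen export and mRNA binding 1 rose, Creb3l1, which codes for a transcription factor that drives collagen I genes in osteoblasts. It gave 202, 195, 199 and 208 CPM in C5 to C8 and 239, 249, 257 and 271 CPM in L5 to L8, without overlap (1.26-fold, log2 fold change 0.34, SE 0.038, edgeR adjusted p = 2.8e-06). Of 6 tested propeptide-cleavage genes 2 rose. Tll1, a relative of the C-proteinase gene Bmp1, gave 5.49, 5.07, 4.73 and 3.88 CPM in C5 to C8 and 9.33, 10, 8.77 and 10.1 CPM in L5 to L8, a rise of 2-fold (log2 fold change 1, SE 0.132, edgeR adjusted p = 2.2e-05). Adamts14, an N-proteinase gene, rose 2-fold from 1.97 ± 0.708 to 3.94 ± 0.869 CPM (edgeR adjusted p = 0.0097). The groups did not overlap for either gene. Bmp1 itself, named after its values were seen, was more abundant (131 CPM in controls) and had a log2 fold change of 0.003 (edgeR adjusted p = 0.973).

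Lysyl oxidase genes, whose products cross-link fibrils, went both ways. Loxl4 (1.19-fold, edgeR adjusted p = 0.0105) and Loxl3 (1.13-fold, edgeR adjusted p = 0.000204) rose and Lox, the most abundant, fell 1.09-fold (2642 ± 44.8 to 2417 ± 36.7 CPM, edgeR adjusted p = 0.000675). Of 7 tested receptor and uptake genes 3 rose and 1 fell. Itga2, the α2 integrin chain that binds collagen I, rose 1.53-fold from a low 2.35 ± 0.266 CPM (edgeR adjusted p = 0.0343), a call lost without C5, C7, C8, L5, L6 or L8 (0.0652, 0.0772, 0.0972, 0.0871, 0.0786 and 0.0871) and with a filter of 1 count (0.0538). Itgb1, its β partner, rose 1.07-fold (edgeR adjusted p = 0.0126), and the collagen-binding receptor kinase gene Ddr2 fell 1.08-fold (edgeR adjusted p = 0.0134). Mrc2, an endocytic collagen receptor, rose 1.07-fold (edgeR adjusted p = 0.0212), and was not called without C5, C7, C8, L7 or L8 (0.0506, 0.0514, 0.0704, 0.0792 and 0.057) or with library totals alone (0.0705).

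None of 6 tested fibril-associated regulators was called by edgeR at the threshold. Those of lowest p were Bgn, the proteoglycan biglycan (1785 ± 14.7 and 1712 ± 42.6 CPM, edgeR adjusted p = 0.118, and 0.0242 with library totals alone), and Dcn, decorin (7.33 ± 0.617 and 8.24 ± 0.821 CPM, edgeR adjusted p = 0.404). Bgn was the 1 gene of these 6 under 0.05 before adjustment. Of 4 tested collagen-cleaving proteases Mmp14, a membrane-bound collagenase, rose 1.21-fold (edgeR adjusted p = 9.04e-06) and Mmp13, a secreted collagenase, rose 1.63-fold (edgeR adjusted p = 0.0126), while Ctsk, cathepsin K, fell 1.15-fold (edgeR adjusted p = 0.0188). The call of Mmp13 needed each of C7, L7 and L8 (0.0513, 0.0527 and 0.0518 when one was left out), and that of Ctsk needed C7 and L6 (0.0745 and 0.0739).

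**Figure D5:**
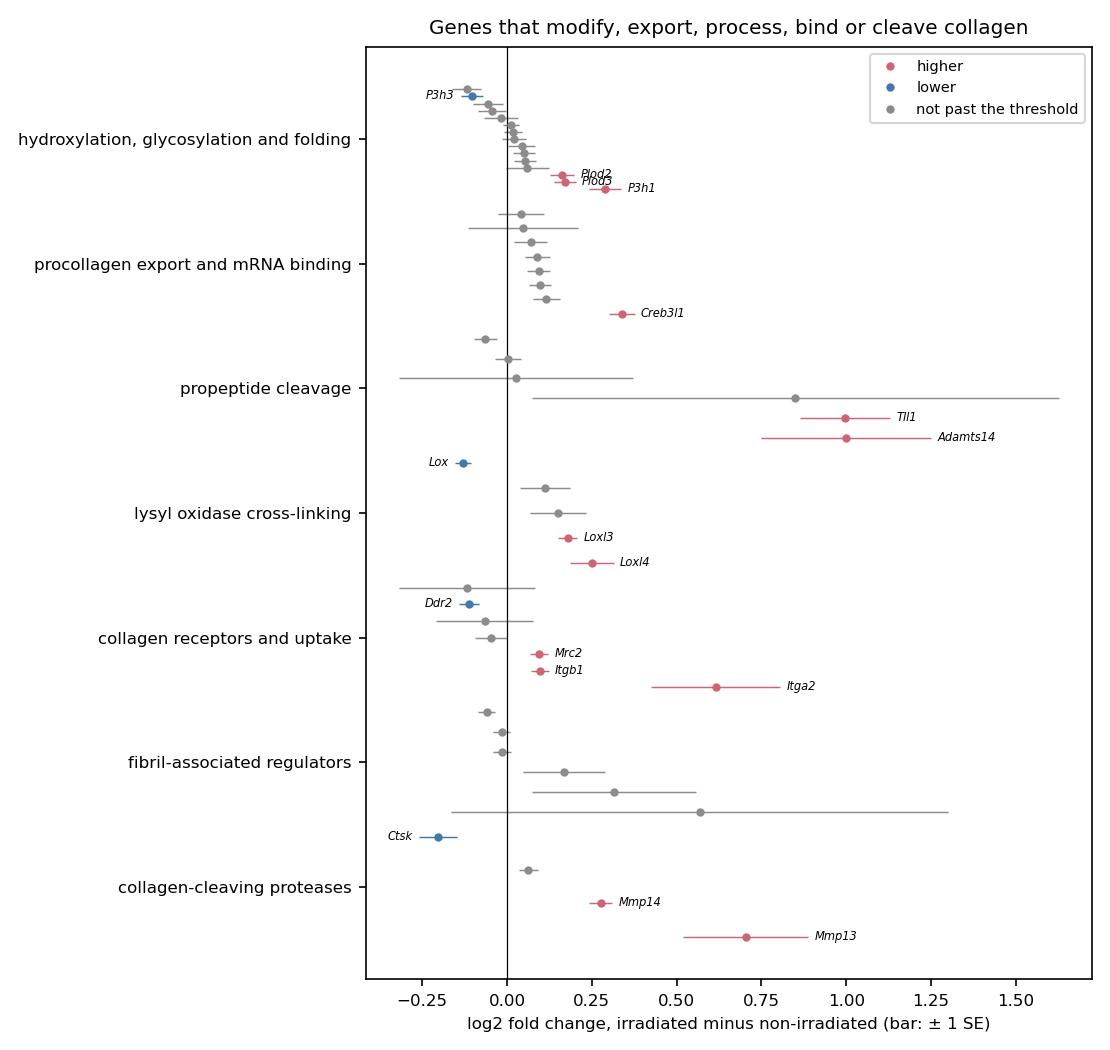
Log2 fold change (irradiated minus non-irradiated) with bars of 1 SE for the 51 tested genes of 7 lists that modify, export, process, cross-link, bind or cleave collagen, with called genes named and coloured. Tll1 and Adamts14 lie near 1, Creb3l1 at 0.34, and Lox, Ddr2, P3h3 and Ctsk to the left of 0.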

How the data were processed

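The authors deposited gene-level estimated counts (whole numbers, not normalized) from poly(A) RNA of the 8 libraries. Per the submitters' processing notes the genome was GRCm39 and the tools HISAT2 2.2.1, StringTie 2.1.7, Trimmomatic 0.39, DESeq2 1.32.0 and FastQC 0.11.9. Settings, annotation and strand are not stated in the sources at hand. The value 4 occurs 6096 times in the table, 3 occurs 4006 times and 5 occurs 2428 times, so a fragment may add about 4 counts. Column names run from 5 to 8 and titles from 1 to 4, so columns were tied to groups, not samples.

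Identifiers without version were matched to GENCODE M21 (GRCm38), which named 52083 of 55359 and supplied lengths. Genes passing filterByExpr (minimum count 10) were fitted with edgeR 4.0.16 in R 4.3.3 (TMM, robust glmQLFit, a model of group alone), with p-values adjusted over all of them. An SE is the log2 fold change divided by the square root of F. Tests were tried on simulated data, where 46 of 50 genes changed 2-fold and 20 of 50 changed 1.2-fold were recovered with 6 false calls among 14763 genes. Changes were placed only in genes with an expected count above 50 per library, so these rates do not cover sparser members such as Col27a1 and Col4a6.

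Members and lists were chosen with earlier results of these data known. Every member is accounted for. Library values are given for called members and for the 3 of highest level per kilobase in each class. From each further list up to 4 called genes of largest change, or the 2 of lowest p, are named, 2 of them (Creb3l1 and Tll1) with library values and the others with fold changes or group means. Alternatives were DESeq2 1.42.0, limma-voom (limma 3.58.1), other scalings and filters, counts divided by 4, a block by column number and the omission of each library.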

Additional observations from a re-analysis of the deposited data

Results flagged for a closer look

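Of the values reported, 5 sets of 4 libraries had 1 library far from the other 3 by Dixon's criterion. Chance gives this in about 1 of 20 sets. The number of sets screened is not given here, so these 5 may be no more than chance gives. C5 was highest for Col10a1, at 0.991 CPM where the next control was at 0.656, and L8 was highest among irradiated libraries for the same gene, at 1.63 CPM where the next was at 0.756. C5 was highest for Loxl4 at 30.6 CPM, with the next control at 26.8. L7 was lowest for Itga2 among irradiated libraries at 2.84 CPM, with the next at 3.83. L8 had the highest log2 ratio of Col4a1 to Col4a2 among irradiated libraries, 1.29 where the next was 1.2.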

How the results depend on the processing

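Under the 17 alternative settings Col8a1, Col11a1 and Col1a2 stayed higher and Col5a3, Col11a2 and Col18a1 lower, each past the threshold, with log2 fold changes of 0.65 to 0.73, 0.27 to 0.35, 0.23 to 0.28, -0.45 to -0.40, -1.17 to -0.95 and -0.27 to -0.23. Col4a2 kept its sign in all of them and its call in 7. With both libraries numbered 6 left out, 5 collagen genes were higher, Col6a3 (edgeR adjusted p = 0.000453) and Col7a1 (0.0305) being added, and the cause was not tested. That setting also ended the calls of Col4a2 (0.297), Ddr2 (0.053), Ctsk (0.131), P3h3 (0.0818) and Itga2 (0.0593). In it 2 pathway genes were lower, Lox and a gene not called with all libraries, whose name is not given here. Leaving out C7 or L6 also gave 2 lower pathway genes. When single libraries were left out, lower pathway genes numbered 2 to 5, against 4 with all libraries. No pairing by column number was detected. Same-numbered libraries deviated from their group means with correlations of -0.046 to 0.0014, and differently numbered ones with -0.022 to 0.033. Sparse genes counted as much as abundant ones in these correlations, so a weak pairing could have been missed. With a replicate block by column number, Col4a2 (0.103), P3h3 (0.0738), Itga2 (0.064), Mrc2 (0.0653) and Itgb1 (0.0511) lost their calls. Sign changes within column numbers cannot give a p below 0.125 for the chain ratios, and 3 against 4 libraries none below 0.0571, so these settings carry no test of them. Pseudocounts of 0.1 and 2 CPM also left 0 pairs past the threshold, under the same limit on the smallest p. No scaling moved the median log2 fold change of all tested genes by over 0.1.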
